A study of Caenorhabditis elegans with 2 samples.

Results

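Nuclear hormone receptors are transcription factors that bind DNA through a zinc-finger domain, and most of them carry a ligand-binding domain for small fat-soluble molecules. The receptor genes described here were 268 of the 19973 protein-coding genes annotated on the Caenorhabditis elegans build ce11 (WBcel235). They were chosen by name: 264 genes named nhr with a number, and the receptor genes odr-7, sex-1, unc-55 and fax-1. The receptor genes nhr-23, nhr-25, nhr-73, nhr-74 and nhr-85 were left out by the same rule, and daf-12, which has another name, is given only among the pathway genes. Chromosome V held 167 of the 268, chromosome IV 33, X 25, I 20, II 15 and III 8.

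The measurement was chromatin immunoprecipitation followed by sequencing (ChIP-seq) of CEH-16, tagged with eGFP, in whole second-stage (L2) larvae of both sexes. Both samples were of strain OP82, which has the unc-119(tm4063) allele on chromosome III and the insertion wgIs82 bearing the tagged ceh-16, and they were labelled as biological replicates 1 and 2 of 1 group. No age, promoter or treatment is given in the labels. The named control library was not analysed here, nor was any larva without the tag, so recovery of a site without the tagged protein was not tested.

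CEH-16 is the engrailed-class homeodomain protein of the worm and acts in the seam cells, the epidermal stem-like cells along each side of the larva. The nuclear receptor family is greatly enlarged in nematodes, where most members descend from an ancestor like the vertebrate receptor HNF4. Many of these genes lie side by side on chromosome V, and a smaller number have clear counterparts in insects and vertebrates. Known roles in the worm include fat and propionate metabolism, responses to toxins and pathogens, neuron identity and the count of X chromosomes that sets sex.

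The authors deposited peak lists, with a signal value per interval, and no read counts, so the depth behind a value is unknown. The optimal list was thresholded on the irreproducible discovery rate (IDR), which is based on how alike peaks rank in both replicates, and held 1358 peaks with signal from 23.2 to 190 and a median of 33.5. The relaxed lists, which include background intervals, had 28214 intervals in replicate 1 and 30000 each in replicate 2 and in the pooled data. A gene was counted when an interval's summit was at most 1000 bp from the 5′ end of one of its annotated transcripts, here called its TSS. Signal values of the replicate lists are on another scale than those of the pooled and IDR lists, so levels are not compared between these. Values of replicates 1 and 2 are set side by side, although the depth behind each is unknown. Whole larvae mix all cell types, so a weak signal in many cells and a strong signal in few cells cannot be told apart.

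The sequences at the receptor peaks are shown first, because the later counts of short words refer to them. All are on the plus strand of WBcel235, 5′ to 3′, and the genome sequence is that of RefSeq. Capitals mark the searched words on either strand: the homeodomain core (the word TAATTA together with its variants spelled TAATTG and also CAATTA), the word GATAAG, which GATA factors bind, and the word AGGTCA, the half-site of many nuclear receptors. The first is the window of 201 bases around the summit of the strongest receptor peak, at nhr-137 (chrX:6669477-6669677), which holds GATAAG and no homeodomain core.
nhr-137: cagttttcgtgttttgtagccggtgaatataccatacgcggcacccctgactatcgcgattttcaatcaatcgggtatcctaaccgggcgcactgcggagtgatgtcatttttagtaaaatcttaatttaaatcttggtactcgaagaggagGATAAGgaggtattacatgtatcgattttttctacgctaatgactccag
The window at nhr-175 (chrV:13866439-13866639), a peak of nearly equal signal in both replicates, holds none of these words.
nhr-175: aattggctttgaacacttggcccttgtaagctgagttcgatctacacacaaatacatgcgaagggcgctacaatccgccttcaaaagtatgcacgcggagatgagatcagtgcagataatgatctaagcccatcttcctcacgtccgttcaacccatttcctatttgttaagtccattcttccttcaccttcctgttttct
The window at nhr-46 (chrIV:5749916-5750116) holds a TAATTA, the homeodomain core, at position -92.5 bp counted from the summit.
nhr-46: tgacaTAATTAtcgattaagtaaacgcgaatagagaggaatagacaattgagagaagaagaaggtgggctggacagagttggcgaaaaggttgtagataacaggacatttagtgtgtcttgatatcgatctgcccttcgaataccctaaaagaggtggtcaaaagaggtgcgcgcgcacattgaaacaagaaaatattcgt
The window at nhr-255 (chrX:15741911-15742111) is shown because its summit lay 39 bp from a tRNA gene and the peak holds repeated sequence.
nhr-255: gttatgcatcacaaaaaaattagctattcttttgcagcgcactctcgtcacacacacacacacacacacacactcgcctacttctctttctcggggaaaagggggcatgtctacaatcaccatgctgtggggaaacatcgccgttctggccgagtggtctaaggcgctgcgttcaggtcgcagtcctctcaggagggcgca

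Sites at other receptor peaks are given as 30 bases each, to show how the same words sit in different surroundings. At nhr-68 (chrV:11572898-11572927) a CAATTA and a GATAAG lay 12 bp apart, start to start.
nhr-68: accctgCAATTAggaacaGATAAGatcaaa
At nhr-179 (chrV:1618642-1618671) the reverse complement of GATAAG was centred on the summit, at -0.5 bp.
nhr-179: ctaaatcggtgcCTTATCgaccacggacat
At its neighbour nhr-177 (chrV:1610283-1610312) the same word lay 25.5 bp from the summit.
nhr-177: cagtaactacctCTTATCtgatttttcgtc
At nhr-91 (chrX:15312802-15312831) the capitals span a TAATTG and a TGACCT, the reverse complement of AGGTCA, which overlap.
nhr-91: caataaaccgTAATTGACCTtccaggtgtc
At nhr-32 (chrX:13251430-13251459) AGGTCA was centred at -14.5 bp from the summit.
nhr-32: tttctcgcattgAGGTCAcacatattccta

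CEH-16 peaks lay at few receptor genes. In the IDR list 18 of the 268 receptor genes had a peak, or 6.72%, with a 95% Wilson interval from 4.29 to 10.4%. Over all protein-coding genes the share was 4.75%. The interval takes in the share of all genes. Of these 18, 17 had 1 peak and nhr-155 had 2, which gives 19 peaks. No replicate-based test of a share exists here, because both replicates enter the IDR list and genes are not replicates, so shares are described beside those of all genes. Most receptor peaks were weak for the list. Their median signal was 29.4, against 33.6 for all 757 IDR peaks within 1000 bp of a protein-coding TSS. Of the 19, 4 reached the median of the list. Among peaks at or above that median the order of the shares turned, with 1.49% of receptor genes against 2.46% of all genes.

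**Figure D1:**
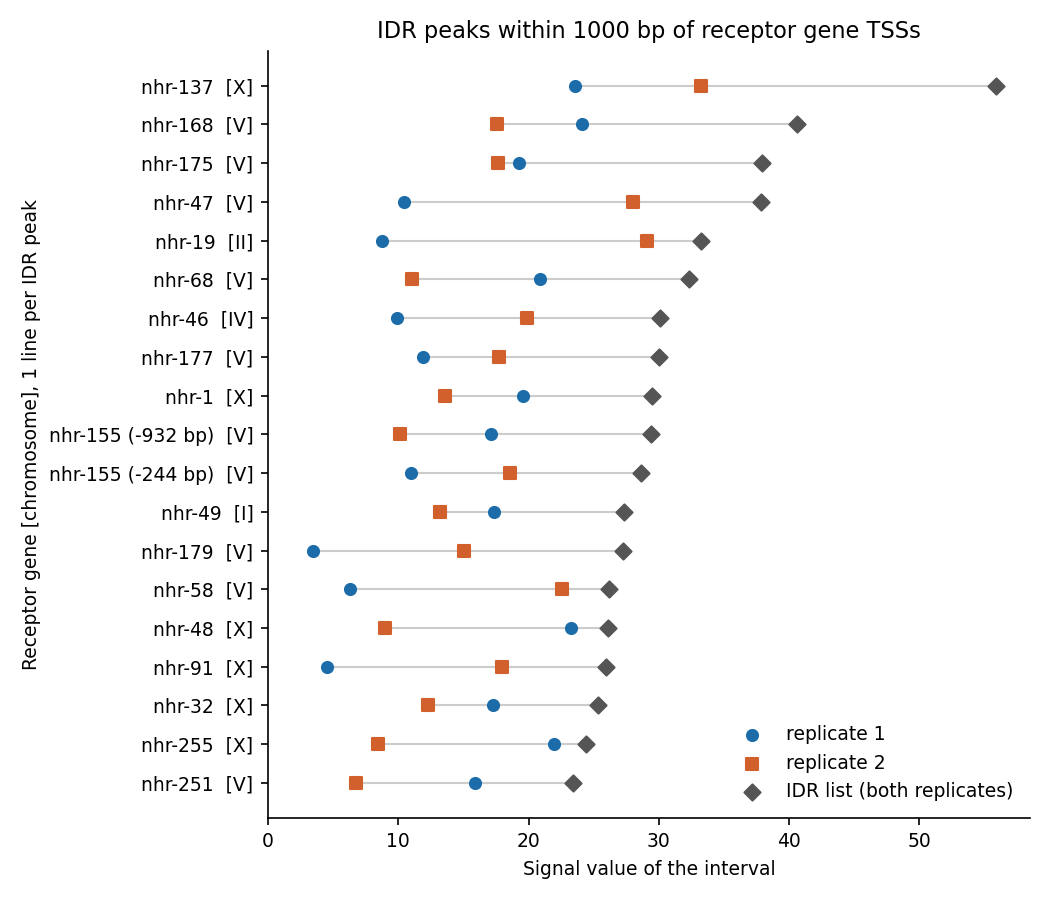
Signal value (horizontal axis) of each of the 19 IDR peaks within 1000 bp of a receptor gene TSS, 1 line per peak with the chromosome in brackets, in the IDR list (diamonds), replicate 1 (circles) and replicate 2 (squares). nhr-137 stands at 55.9 in the IDR list, and the other peaks lie between 23.4 and 40.6.

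Receptor genes with the strongest peaks were nhr-137, nhr-168, nhr-175 and nhr-47, genes of the enlarged nematode group. At nhr-137 (WBGene00003727) the peak lay at X:6669429-6669724, between genes and 566 bp upstream of a TSS, with signal 55.9 in the IDR list, 23.5 in replicate 1 and 33.3 in replicate 2. It ranked 198 of 1358. The peak of nhr-168 (WBGene00008221) at V:13333455-13333750, 203 bp upstream of a TSS and in a UTR of another transcript of the same gene, had signal 40.6, with 24.1 and 17.6 in replicates 1 and 2. That of nhr-175 (WBGene00008630) at V:13866391-13866686, 152 bp upstream, had 37.9, with 19.2 and 17.7. These 3 and nhr-1 were the only receptor peaks that overlapped a top interval in both replicates, a top interval being among the 1358 of highest signal in its list.

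The peak of nhr-47 (WBGene00003637) at V:5505123-5505418 had signal 37.8, with 10.4 in replicate 1 and 28.03 in replicate 2. Its summit lay 18 bp downstream of the TSS, in the UTR, and 414 bp from a TSS of dnj-19, a gene of the DnaJ chaperone family. It was therefore high in replicate 2 and not in replicate 1, and 2 genes shared it.

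Receptors of fat and propionate metabolism included 2 genes with a peak among the 10 in that list (20%, interval 5.67 to 51%), beside the 4.75% of all genes. The 10 had a mean of 3.1 TSSs against 1.49 for all genes, and 6.9% of all genes with 2 or more TSSs had a peak. nhr-49 (WBGene00003639), which controls fatty acid oxidation and desaturation, had a peak at I:9870086-9870381, with its summit in an intron, 467 bp inside from a TSS. Its signal was 27.3, with 17.4 in replicate 1 and 13.2 in replicate 2. nhr-68 (WBGene00003658), which turns on the alternative breakdown route of propionate, had a peak 459 bp upstream at V:11572833-11573128 with signal 32.3, and 20.9 and 11.02 in replicates 1 and 2. Both were higher in replicate 1. The nhr-68 summit lay 9 bp from a TSS of H12C20.7, in a UTR of that gene, so the peak is closer to the neighbour than to the receptor gene.

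In the same list, 9 of the 10 genes had an interval in the pooled relaxed list (90%, interval 59.6 to 98.2%). Of all genes 52.9% had one, and of those with 2 or more TSSs 68.1%. nhr-114, which protects the germline from dietary toxicity, had the highest pooled signal of those without an IDR peak, 17.2, with 5.09 in replicate 1 and 9.95 in replicate 2. nhr-66, a partner of NHR-49, had 14.9, with 4.31 and 13.9. nhr-62, which acts in lipid breakdown under dietary restriction, had 13.4, with 6.25 and 7.35. All 3 were higher in replicate 2. The pooled values of the others ran down to 4.88 at nhr-80, which acts in fatty acid desaturation: nhr-69 had 9.94, nhr-64 6.66 and nhr-10, which acts with nhr-68 in propionate breakdown, 5.23. nhr-13 had no pooled interval and was listed only in replicate 2, at 3.65.

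Of 11 receptors with counterparts in insects or vertebrates, 2 had an IDR peak (18.2%, interval 5.14 to 47.7%), beside the 4.75% of all genes. The 11 had a mean of 2.09 TSSs against 1.49 for all genes, and 6.9% of all genes with 2 or more TSSs had a peak. Both peaks were on X, where 6.48% of all genes had one. nhr-48 (WBGene00003638), a relative of DAF-12 and of the vertebrate vitamin D receptor, had a peak at X:15707484-15707779, 581 bp upstream of a TSS, with signal 26.1. It was 23.2 in replicate 1 and 8.94 in replicate 2. nhr-91 (WBGene00003681), the counterpart of vertebrate germ cell nuclear factor, had a peak at X:15312642-15312937, in a UTR 127 bp downstream of an internal TSS, with signal 26.0, and 4.56 and 17.95 in replicates 1 and 2. The replicates were therefore unequal in opposite directions at these 2 peaks.

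Of the 11, 8 had a pooled interval (72.7%, interval 43.4 to 90.3%), where 52.9% of all genes and 68.1% of those with 2 or more TSSs had one. nhr-41, the counterpart of the vertebrate receptors TR2 and TR4, had signal 20.8, with 11.1 in replicate 1 and 8.42 in replicate 2. nhr-8, a DAF-12 relative of xenobiotic and cholesterol responses, had 12.7, with 2.86 and 6.94. The COUP-TF gene unc-55, which sets motor neuron identity, had 7.77, the NR4A gene nhr-6, needed for the spermatheca, 7.71, the Tailless gene nhr-67, which acts in the anchor cell and in neurons, 6.46 and nhr-239 6.15. These 4 values lie near or below the median strongest pooled signal of all genes with an interval, 7.23. fax-1, a gene of interneuron identity, sex-1, which counts X chromosomes, and nhr-111 had none.

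Neither receptors of toxin and pathogen responses nor neuronal and developmental receptors had an IDR peak. The first list held 0 of 6 with an upper Wilson limit of 39%, and 5 of the 6 had a pooled interval (83.3%, interval 43.6 to 97%), beside 4.75% and 52.9% of all genes. nhr-14, which acts in iron and pathogen responses, had the highest, 21.01, with 9.85 and 9.72 in replicates 1 and 2, and an IDR summit of signal 59.7 lay 1487 bp from its TSS. nhr-57, a gene induced by low oxygen, had 15.7, nhr-45 8.98 and nhr-86, a receptor for a bacterial metabolite, 8.11. nhr-176, which acts in drug metabolism, had none. The second list held 0 of 8 with an upper limit of 32.4%, and 5 of the 8 had a pooled interval (62.5%, interval 30.6 to 86.3%).

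In the neuronal and developmental list nhr-60, a gene active in seam cells, had a pooled signal of 18.7, with 10.9 in replicate 1 and 9.29 in replicate 2. nhr-40, which acts in muscle development, had 17.02, with 13.4 and 8.99. Both were higher in replicate 1. odr-7, needed for the AWA olfactory neurons, had no pooled interval, and 5.57 and 2.56 in the replicate lists. nhr-2, which acts in the embryo, was listed only in replicate 2, at 2.91. Since 4 genes of this list are also among the 11 with counterparts in other animals and nhr-8 is in 2 lists, the lists are not independent.

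The other IDR peaks were at receptor genes for which no role is given here. nhr-19 (WBGene00003618) had a peak 636 bp upstream at II:9606014-9606309 with signal 33.2, and 8.74 in replicate 1 and 29.1 in replicate 2. nhr-46 (WBGene00003636) had a peak in an intron, 126 bp upstream of an internal TSS, at IV:5749868-5750163, with signal 30.1, and 9.90 and 19.9. nhr-1 (WBGene00003600) had a peak 368 bp upstream at X:17513547-17513842 with signal 29.5, and 19.6 and 13.6. The first 2 were about 2-fold or more higher in replicate 2, and nhr-1 was higher in replicate 1. nhr-251 (WBGene00022756), 735 bp upstream at V:599648-599943, had the lowest signal of all receptor peaks, 23.4, with 15.9 and 6.73.

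Receptor peaks stood at varied distances from the TSS, further away on X than on autosomes. The median distance was 368 bp over all 19, 535.5 bp on X and 203 bp on autosomes, against 274 bp over the 1007 gene-peak pairs of all genes. Upstream of the TSS lay 14 of the 19 (73.7%), against 85.7% of all pairs. Of the 19 summits, 11 were intergenic, 6 in UTRs, 2 in introns and none in a coding exon. Only 2 of the 19 (10.5%) had a TSS of another protein-coding gene within 1000 bp, those of nhr-47 and nhr-68. Of all IDR peaks near a protein-coding TSS, 31% had TSSs of 2 or more such genes. Genes of other classes, such as the tRNA gene 39 bp from the nhr-255 summit, were not counted. The furthest inside the 1000 bp limit was the upstream peak of nhr-155 at 932 bp with signal 29.4, and the nearest outside it, among genes without a peak, was 1216 bp from nhr-270 with signal 29.4.

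**Figure D2:**
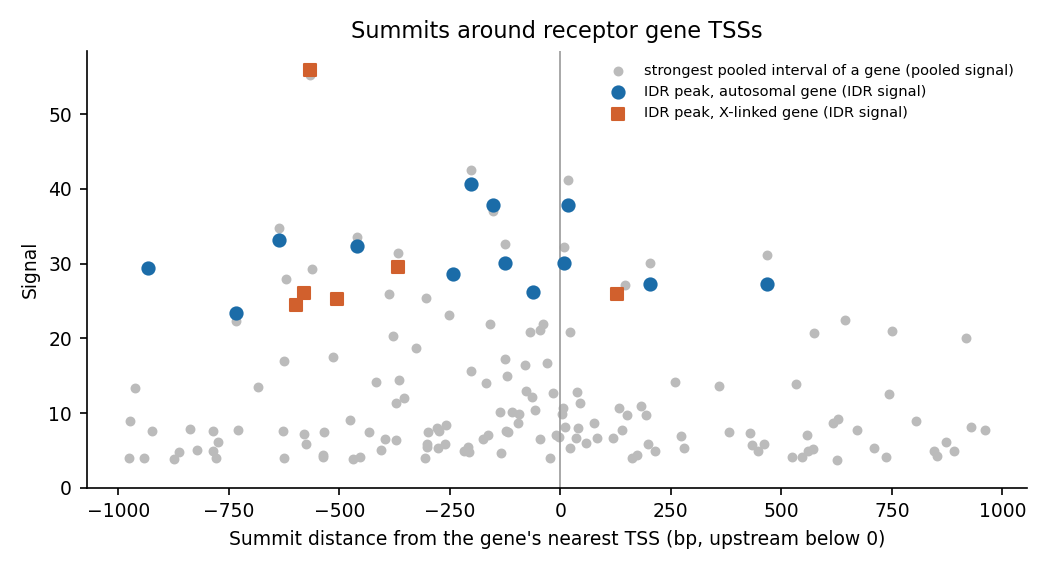
Signal value against the distance of the summit from the nearest TSS of the receptor gene (bp, upstream below 0). Large circles and squares are IDR peaks of autosomal and X-linked receptor genes, and small points are the strongest pooled interval of each of the 151 genes that had one. Of the 6 X-linked peaks, 4 lie more than 500 bp from a TSS.

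Within 3 receptor genes IDR summits lay in introns beyond 1000 bp of a TSS. nhr-91 had 2 of them that exceeded its promoter peak. The first, at X:15310341-15310636, 1108 bp from a TSS, had signal 66.8, with 41.02 in replicate 1 and 27.5 in replicate 2, and the second, at X:15311147-15311235, 1464 bp from a TSS, had 56.6, with 28.2 and 24.6. The largest IDR signal within a receptor gene was thus in an intron of nhr-91. nhr-3 had one of 26.3 at 1911 bp (17.2 and 8.48 in replicates 1 and 2), and nhr-19 one of 29.99 at 3997 bp (12.3 and 19.2).

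X-linked receptor genes carried IDR peaks more often than autosomal ones in the main count, and the size of this gap depended on the window and on the signal minimum. On X 6 of 25 receptor genes carried one, or 24% (interval 11.5 to 43.4%), while 6.48% of all X-linked protein-coding genes did (5.62 to 7.47%). On autosomes 12 of 243 had one (4.94%, interval 2.85 to 8.43%), against 4.47% of all autosomal genes. The difference between X and autosomes itself was not tested. The 6 genes on X were nhr-137, nhr-1, nhr-48, nhr-91, nhr-32 and nhr-255. Within 500 bp of a TSS only nhr-1 and nhr-91 were left, 2 of 25 (8%) against 4.54% of X-linked genes, and among IDR peaks at or above the median signal only nhr-137, 1 of 25 (4%) against 3.26%. With each peak given to the nearest protein-coding TSS only, the share on X was 24% against 5.93%. It was 28% against 7.07% with the top pooled intervals, and 36% against 9.34% within 2000 bp.

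Peaks of X-linked receptors were 127 to 599 bp from a TSS. Of the 6, 4 were over 500 bp away, against 3 of the 13 autosomal receptor peaks. The median IDR signal was 26.0 on X and 30.1 on autosomes, and nhr-137 alone lay above 30 on X. At nhr-32 (WBGene00003626; X:13251311-13251606, 505 bp upstream) the signal was 25.3, with 17.2 in replicate 1 and 12.3 in replicate 2. At nhr-255 (WBGene00014068 at X:15741863-15742158, 599 bp upstream) it was 24.4, with 21.9 and 8.46, and the summit lay 39 bp from a tRNA gene. In the latter peak 77.1% of the 31-base words occur once in the genome, against 100% in every other receptor peak, so some of its reads may belong to other copies. nhr-255 and nhr-48 lay close together, with summits 34.4 kb apart, and had nearly the same ratio of replicate 1 to replicate 2, 2.59 and 2.60.

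X-linked receptor genes were also longer and had slightly more annotated starts, and the part of this in the count was not tested. Their median length was 4093 bp, against 2246 bp on autosomes, and they had a mean of 1.76 TSSs against 1.67. Among genes with 1 TSS, 2 of 13 X-linked receptor genes had an IDR peak (15.4%, interval 4.33 to 42.2%), against 3.93% of all genes with 1 TSS. Of those with 2 or more, 4 of 12 had one (33.3%, interval 13.8 to 60.9%), against 6.90% of all such genes. The 2 all-gene shares cover all chromosomes, and peaks were more frequent at X-linked genes (6.48%) than at autosomal ones (4.47%). They therefore do not separate the number of TSSs from the chromosome. In the relaxed pooled list 15 of 25 X-linked receptor genes (60%, interval 40.7 to 76.6%) and 136 of 243 autosomal ones (56%, interval 49.7 to 62.1%) had an interval, against 56.8% and 52.3% of all genes. The replicate lists were further apart. In replicate 1 the shares were 84% on X (21 of 25, interval 65.3 to 93.6%) and 50.2% on autosomes, against 54.1% and 50.5% of all genes, and in replicate 2 they were 72% (18 of 25, interval 52.4 to 85.7%) and 57.2%, against 57.8% and 52.3%. Of the genes with a pooled interval, the median strongest signal was 21.01 on X and 7.70 on autosomes, against 7.63 and 7.17 for all genes with one. With genes without an interval set to 0, these medians were 6.61 and 4.41.

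The X-linked receptors below the IDR list included nhr-35, the highest of all, with pooled signal 26.0, and 9.47 in replicate 1 and 14.7 in replicate 2. nhr-14 and nhr-40 followed at 21.01 and 17.02. nhr-173 and nhr-272 of the X-linked clusters and nhr-281 had no interval in any relaxed list.

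**Figure D3:**
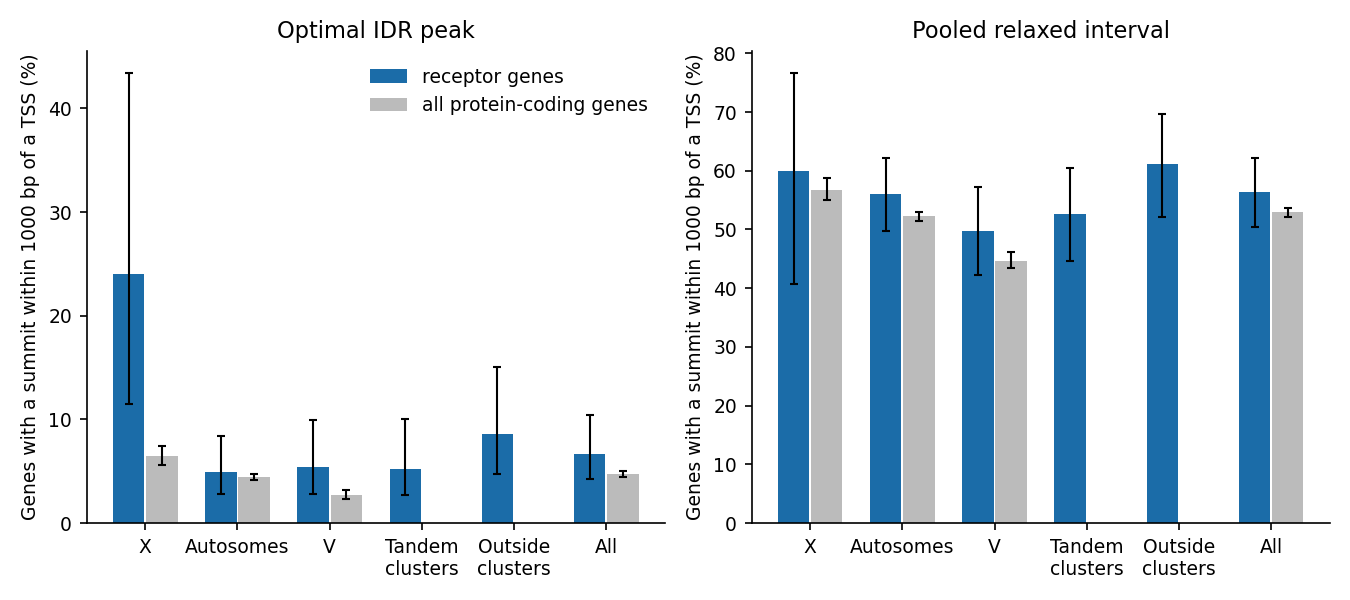
Percentage of genes with an IDR peak (left) or a pooled relaxed interval (right) with its summit within 1000 bp of a TSS, for receptor genes and for all protein-coding genes of the same chromosomes. Bars are shares, lines are 95% Wilson intervals of counting error, and clusters have no matching bar for all genes. The X-linked receptor share is 24% on the left and 60% on the right.

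Chromosome V, which holds most of the family, is poor in IDR peaks as a whole. Of its receptor genes 9 of 167 had one (5.39%, interval 2.86 to 9.92%), against 2.7% of all genes on V (2.29 to 3.19%). With V split into 3 equal lengths, the outer ones called arms here, in the arms 6 of 126 had one (4.76%, interval 2.20 to 10%) against 2.19% of genes there, and in the middle 3 of 41 (7.32%, interval 2.52 to 19.4%) against 3.62%. The share on V was thus above that of its neighbours in both parts of the chromosome, with intervals whose lower ends lie near or below that of all genes there. On the other autosomes 3 of 76 receptor genes had one (3.95%, interval 1.35 to 11%), and 5.19% of all genes.

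Receptor genes in tandem clusters had a lower share of peaks than the other receptor genes at 1000 bp, and the order turned at 500 bp. A cluster here is a run of at least 2 receptor genes with at most 1 other protein-coding gene between neighbours. There were 44, holding 152 genes: 22 pairs, 13 of 3 or 4 genes and 9 of 5 or more, with 30 clusters on V. IDR peaks lay at 8 of the 152 (5.26%, interval 2.69 to 10%) and at 10 of the 116 outside (8.62%, interval 4.75 to 15.1%), intervals that overlap. The genome-wide share was 4.75%, which lies within the interval of the clustered genes. Within 500 bp the shares were 4.61% (7 of 152) and 4.31% (5 of 116), where the genome-wide share was 3.63%. On autosomes alone the shares were 7 of 145 (4.83%) and 5 of 98 (5.10%), beside 4.47% of autosomal genes in general. On V they were 6 of 116 (5.17%) and 3 of 51 (5.88%), beside 2.7% of genes there. With this cluster definition the gap at 1000 bp therefore lay mainly on X. There 1 of 7 clustered receptor genes and 5 of 18 others had a peak. Of X-linked genes in general 6.48% had one. With only directly adjacent receptor genes taken as clusters, 5 of 134 clustered genes and 13 of 134 others had a peak. X and autosomes were not counted apart under that definition.

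Of the 44 clusters 6 held an IDR peak, and 2 of these held peaks at 2 members each. Only 8 of the 152 clustered genes had a peak (5.26%, against 4.75% of all genes). Whether peaks gather within clusters was not tested. The cluster of nhr-58, nhr-132 and nhr-155 spans 9.23 kb at the left end of V. nhr-58 (WBGene00003648; V:532048-532343, 63 bp upstream) had signal 26.2, with 6.25 in replicate 1 and 22.5 in replicate 2. nhr-155 (WBGene00015758) had a peak 932 bp upstream of its TSS (V:538380-538675) with signal 29.4, and 17.1 and 10.1 in replicates 1 and 2. Its other peak, 244 bp upstream (V:539068-539363), had signal 28.7, with 10.9 and 18.6. These 2 summits were 688 bp apart, and each replicate was the higher at one of them. nhr-132, between the 2 genes, had no pooled interval.

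A cluster of 7 genes on V, nhr-178, nhr-177, nhr-179, nhr-117, nhr-110, nhr-237 and nhr-238, spans 25.5 kb. At nhr-177 (WBGene00017503; V:1610124-1610419) the summit lay 9 bp downstream of the TSS, in the UTR, with signal 30.1, and 11.9 in replicate 1 and 17.7 in replicate 2. At nhr-179 (WBGene00017512; V:1618509-1618804) it lay 203 bp downstream, also in the UTR, with signal 27.3, and 3.45 and 15.01. The latter was the lowest replicate 1 value of all receptor peaks. Of the other 5 genes 2 had a pooled interval. In the remaining clusters with a peak, nhr-49 lay beside nhr-69 (pooled signal 9.94) and nhr-68 beside nhr-101 (10.5). nhr-168 lay beside nhr-129, which had no pooled interval, and nhr-137 beside nhr-120 (12.6) and nhr-173, which had none.

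Pooled signals in the largest clusters did not exceed 7.68. The median strongest pooled signal was 7.23 over all genes with an interval. It was 6.20 over those on the arms of V, where these clusters lie. One of 9 genes on V (nhr-133, nhr-184, nhr-56, nhr-128, nhr-103, nhr-18, nhr-126, nhr-134 and nhr-96) had pooled intervals at 3, with signal from 4.90 to 7.68. The other, also of 9 genes on V and running from nhr-185 to nhr-124, had them at 3, from 4.41 to 5.26. Neither had an IDR peak. In 9 clusters every gene had a pooled interval and in 6 none had. By pooled interval 80 of 152 clustered receptor genes were counted (52.6%, interval 44.7 to 60.4%) and 71 of 116 others (61.2%, interval 52.1 to 69.6%), against 52.9% of all genes. On V the order was the other way, with 59 of 116 clustered genes (50.9%) and 24 of 51 others (47.1%), beside 44.7% of genes there.

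**Figure D4:**
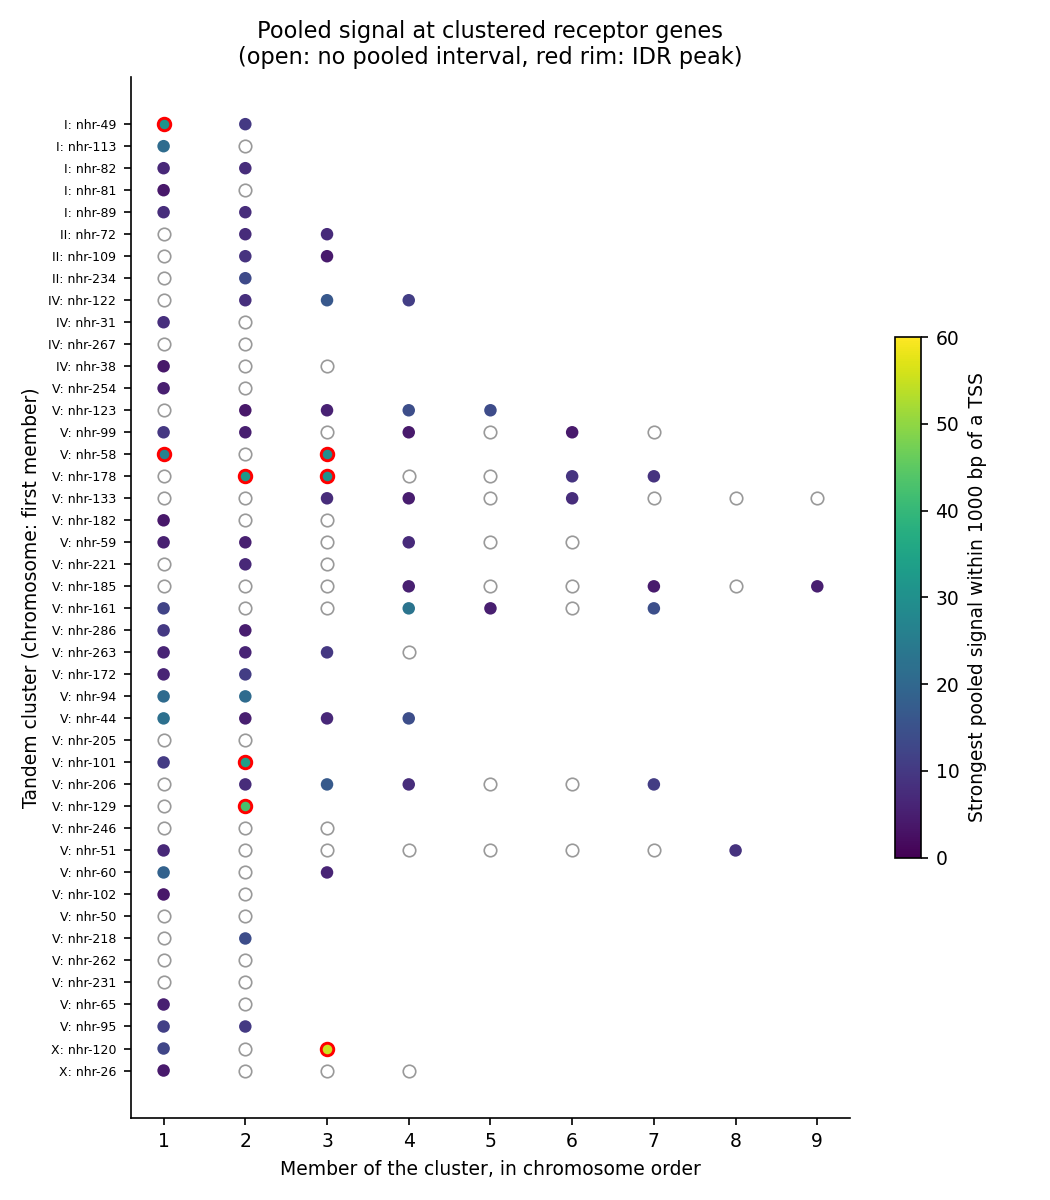
Strongest pooled signal (colour) within 1000 bp of a TSS of each clustered receptor gene, 1 row per cluster named by chromosome and first gene, with genes in chromosome order from left to right. Open circles are genes without a pooled interval, and red rims mark the 8 clustered genes with an IDR peak, which fall in 6 of the 44 clusters.

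Copies of a repeated sequence can share reads, and such sequence was about as frequent near the starts of receptor genes as of all genes. A copy could lie anywhere in the genome, and receptor genes were not compared with each other. Under 90% of the 31-base words within 1000 bp of the TSSs were unique at 37 receptor genes (13.8%), against 15.8% of all genes. They made up 23 of the 152 clustered genes (15.1%), 14 of the 116 others (12.1%) and none on X. None of the 37 had an IDR peak, beside 4.75% of all genes, and 19 had a pooled interval, beside 52.9% of all genes. These 2 shares cover all genes, and the 3158 protein-coding genes under 90% were not counted apart. An effect of repeated sequence on these counts was not tested. Among the remaining genes 68 of 129 clustered ones (52.7%) and 64 of 102 others (62.7%) had a pooled interval.

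Most of the family appeared only in the relaxed lists. Pooled intervals lay at 151 receptor genes (56.3%, interval 50.4 to 62.2%), against 52.9% of all genes. Replicate 1 intervals lay at 143 (53.4%, against 51% of all genes) and replicate 2 intervals at 157 (58.6%, against 53.1%). Each relaxed list thus reached about the same share of receptor genes as of other genes, within 6 percentage points. All 3 lists had an interval at 83 receptor genes, and none of them at 58.

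Over all receptor genes with a pooled interval the median strongest signal was 8.03, against 7.23 for all genes with one. Of the 250 receptor genes without an IDR peak, 133 had a pooled interval, with signal from 3.79 to 26.0 and a median of 7.58. Of these 133, 12 reached 20, 30 lay between 10 and 20, and 91 lay below 10. The same classes were not counted over all genes. Besides nhr-35, nhr-14, nhr-41, nhr-60 and nhr-114, the 15 highest included nhr-140 with 23.1 (10.1 in replicate 1 and 8.42 in replicate 2), a gene of a cluster of 7 on V. nhr-270 had 22.5, nhr-34 21.97, nhr-44 21.9, nhr-113 21.1, nhr-119 20.3, nhr-43 20.1 and nhr-142 17.5. nhr-94 and nhr-152 start back to back and shared 1 interval of 20.8, with 5.25 in replicate 1 and 18.3 in replicate 2. This was 1 of 5 pooled intervals within reach of 2 receptor genes, and no IDR peak was shared between 2 of them.

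The replicates were further apart at the receptor peaks than over the IDR list as a whole. The receptor peaks were also weaker than the list, and the part of this in the gap was not tested. Every receptor peak overlapped an interval of both replicate lists, as did 98.5% of the IDR list. In 9 of the 19 (47.4%) the replicates were more than 2-fold apart, against 29.2% of all IDR peaks found in both. Replicate 1 was the higher in 10 and replicate 2 in 9. Of the 19, 4 (21.1%) overlapped a top interval in both replicates, against 53% of the list, while 7 did so in replicate 1 alone and 8 in replicate 2 alone. The widest gap was at nhr-179, 4.35-fold higher in replicate 2.

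Across the 96 receptor genes with an interval in both replicate lists, the strongest values gave a Pearson r of 0.598 on the log2 scale and a Spearman rho of 0.556. Without the IDR genes rho was 0.351 over 78 genes. These describe genes that share the same pair of libraries and are no test.

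**Figure D5:**
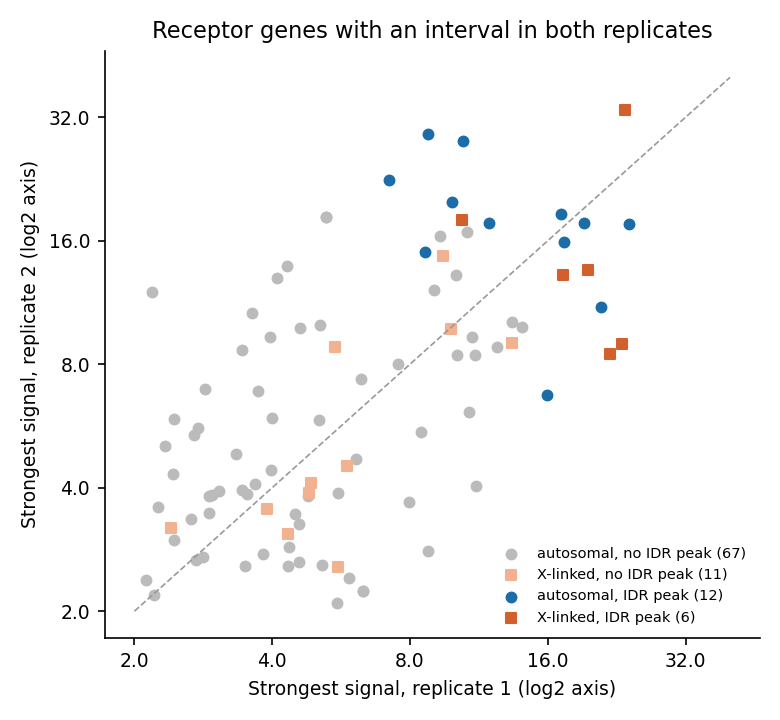
Strongest signal within 1000 bp of a TSS in replicate 1 (horizontal) and replicate 2 (vertical), both on log2 axes, for the 96 receptor genes with an interval in both lists. Colour and shape give the chromosome class and whether the gene had an IDR peak, and the dashed line marks equal values. Spearman's rho is 0.556 over all 96 and 0.351 over the 78 without an IDR peak.

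Among the searched words GATAAG had the share in receptor windows that was furthest from the share in IDR windows at large. It lay within 100 bp of the summit in 7 of 19 (36.8%, interval 19.1 to 59%), against 12% of all 1358 IDR windows and 8.19% of the 28562 pooled windows outside the IDR list. The genes were nhr-137, nhr-19, nhr-68, nhr-177, nhr-155, nhr-179 and nhr-251, each shown above or named with its peak. The homeodomain core was in 3 of 19 (15.8%, interval 5.52 to 37.6%), those of nhr-68, nhr-46 and nhr-91, against 15.4% and 21.2%. AGGTCA was in 2 (10.5%, interval 2.94 to 31.4%), those of nhr-91 and nhr-32, against 11.7% and 6.25%. The windows were 41.3% G and C at the median, against 44.8% over the IDR list, and a match is a description and not a site.

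Genes that work with nuclear receptors, none of them among the 268, had IDR peaks at 5 of 17 (29.4%, interval 13.3 to 53.1%), beside the 4.75% of all genes. The 17 had a mean of 2.41 TSSs against 1.49 for all genes, and 6.9% of all genes with 2 or more TSSs had a peak. The coregulator gene cbp-1, of the CBP/p300 acetyltransferases, had signal 118.1, with 69.9 in replicate 1 and 52.1 in replicate 2, 909 bp upstream of its TSS. The corepressor gene din-1, whose product binds DAF-12, had 51.8, with 43.0 and 12.98, and the steroid receptor gene daf-12 had 42.6, with 21.8 and 23.7. cbp-1 and daf-12 were within 1.5-fold between replicates and din-1 was higher in replicate 1. The acyl-CoA synthetase gene acs-2, a target of NHR-49, had 41.6, with 15.03 and 24.9, and strm-1, whose product methylates sterols and lowers the supply of DAF-12 ligand, had 24.1, with 12.04 and 15.03. The ligand synthesis genes daf-9, daf-36, dhs-16 and hsd-1, the sterol transport genes ncr-1 and ncr-2 and the coactivator gene mdt-15 had no IDR peak. Nor had sbp-1, a regulator of fat synthesis, the desaturase genes fat-5, fat-6 and fat-7 and the acyl-CoA dehydrogenase gene acdh-1, with pooled signals from 4.09 to 11.6.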

How the data were processed

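ChIP-seq of eGFP-tagged CEH-16 was deposited as peak lists for replicates 1 and 2, their pooled data and an optimal IDR-thresholded list, on ce10 and ce11; only the 4 ce11 lists were used. The deposited signal value of each interval is the authors' peak caller's, on its own scale, and serves only to describe and rank intervals. Per the file headers, the relaxed lists are peaks and background made as input for IDR. The sources used here do not name the aligner, the caller or the IDR threshold, and depth is unknown.

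Positions are 1-based on ce11 (WBcel235), with Ensembl release 115 transcripts. Worm 5′ ends are often trans-splice acceptors, not initiation sites. Summits within 1000 bp of a TSS were counted for every protein-coding gene, so 1 summit can count for several genes. Replicate values are those of the strongest replicate interval overlapping a peak by at least 1 bp; for genes without an IDR peak they are the strongest within 1000 bp and may lie elsewhere than the pooled one. Uniqueness is the share of 31-base words that occur once in the genome. Wilson intervals (95%) cover counting error only. No p-value was computed, as there is 1 group of 2 replicates. The members and lists were chosen with earlier results of these data known. Named genes are those with an IDR peak, those of the lists, the 15 highest pooled signals without an IDR peak, and clusters with a peak or of largest size; others were named after their values were seen. daf-21 matched no symbol, which leaves 17 of the pathway genes. Alternatives changed the window, the gene assignment, the list, the signal minimum, the overlap and the cluster definition. Scripts were tested on simulated data and used Python 3.11.15, numpy 2.4.6, scipy 1.17.1 and matplotlib 3.10.9.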

Additional observations from a re-analysis of the deposited data

How the results depend on the processing

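Of 57 alternative values, 40 stayed near the main ones and 17 moved. IDR peaks at or above the median signal left 4 receptor genes, 1 on X, 3 on autosomes, 2 in clusters and 2 outside. That was 1.49% of receptor genes against 2.46% of all genes, the reverse order of the main 6.72% against 4.75%. A 500 bp window left 2 on X (8%, against 4.54% of X-linked genes) and 5 outside clusters (4.31%, against 3.63% of all genes). Clusters of directly adjacent genes held 5 genes with a peak among 134. Those of at least 3 genes held 5 among 108, and those on 1 strand 5 among 120, beside 4.75% of all genes. Under each of these definitions 13 genes with a peak lay outside the clusters, and the share was lower in clusters than outside. With up to 3 genes allowed between neighbours, 9 lay in clusters and 9 outside, again a lower share in clusters. These differences were not tested. The median strongest pooled signal was 8.47 at 500 bp, 7.89 at 2000 bp and 11.3 among pooled intervals at or above the median signal. A top interval in each replicate was met by 4 of the 18 genes. The top intervals of 1 replicate alone (without the other) gave 13 to 19 receptor genes. Of these, 4 to 5 were on X, 8 to 15 on autosomes, 5 to 10 in clusters and 8 to 9 outside. The shares of the whole family were 4.85% against 4.53% of all genes in replicate 1 and 7.09% against 5.11% in replicate 2. On X they were 20% against 6.81% of X-linked genes in replicate 1 and 16% against 6.92% in replicate 2. On autosomes they were 3.29% against 4.17% of autosomal genes and 6.17% against 4.83%. In clusters and outside they were 3.29% and 6.9% in replicate 1, and 6.58% and 7.76% in replicate 2. Relaxed intervals of 1 replicate gave 143 to 157 genes and medians of 4.43 to 4.59. These medians are among the values that moved, and they are on the scale of the replicate lists. Of the 18 genes 13 were shared by the top intervals of replicate 2 and 11 by those of replicate 1. At 2000 bp 22 receptor genes had a peak (8.21%, against 6.82% of all genes), with nhr-14, nhr-270, nhr-3 and nhr-71 added. On X the share was 36%, against 9.34% of X-linked genes. The causes were not tested. No paired analysis was possible because the series has 1 group. Unknown depth and 2 replicates limit every count, and signal scales differ between lists.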
